A study of Homo sapiens with 6 samples.

Results

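The genes described are 10 dual-specificity phosphatases that act on MAP kinases, DUSP1, DUSP2, DUSP4, DUSP5, DUSP6, DUSP7, DUSP8, DUSP10, DUSP14 and DUSP16. They were chosen by gene symbol for their role, with earlier results of these data known, and all 10 were found among the 56637 symbols counted in each library. RNA was sequenced from MM.1S, an established human multiple myeloma cell line. The cells had been infected with lentivirus carrying an shRNA against KDM6B in 3 libraries (shKDM6B) or, as the control, an shRNA against luciferase in 3 libraries (shLuc), and both groups were selected with puromycin. KDM6B is a demethylase that removes repressive methyl marks from histone H3. The labels name no second KDM6B hairpin, so effects of lower KDM6B and off-target effects of the hairpin cannot be told apart. Nor do the labels state that the replicates were separate cultures, and p-values here reflect a spread among libraries that may be technical.

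MAP kinases are switched on when a threonine and a tyrosine in their activation loop are phosphorylated, and dual-specificity phosphatases switch them off by removing both phosphates. Most of the family carry an amino-terminal domain that docks the kinase and a carboxy-terminal catalytic domain. DUSP1, DUSP2, DUSP4 and DUSP5 are nuclear and are themselves induced by growth factor and stress signals. DUSP6 and DUSP7 are cytoplasmic and selective for ERK, while DUSP8, DUSP10 and DUSP16 prefer JNK and p38. DUSP14 is a small member that lacks the docking domain. Because many of these genes are transcribed in response to the kinases they inactivate, their transcripts are often read as part of a negative feedback loop.

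KDM6B itself had 239, 270 and 348 counts in shKDM6B replicates 1 to 3, against 409, 505 and 437 counts in shLuc replicates 1 to 3, or 61.1% of the control level on average (log2 fold change -0.71, SE 0.073, adjusted p = 7.72e-08). Total counts ran from 7952156 to 9848351 in shKDM6B libraries and from 7338393 to 8996159 in shLuc libraries. All 8 plasma cell markers were tested, with 1 higher, 2 lower and 5 not past the test, where 39.1% of all tested genes passed. SDC1, the plasma cell syndecan, was at 479 ± 38.0 CPM in shKDM6B libraries and 511 ± 31.8 CPM in shLuc libraries (SD, n = 3 each). Keratinocyte markers summed to between 43.1 and 91.3 CPM in shKDM6B libraries and between 51.7 and 63.7 CPM in shLuc libraries. KRT10 made up the larger part of this sum in every library. It was at 42.7 to 50.0 CPM in shKDM6B libraries and 50.9 to 53.6 CPM in shLuc libraries. KRT1 was at 0 in all. Of the 4 of 9 that were tested, KRT10 was lower and the other 3, KRT5, KRT14 and KRT19, were higher. KRT14 had 76, 88 and 3 counts in shKDM6B replicates 1 to 3, against 17, 2 and 2 counts in shLuc replicates 1 to 3. KRT5 had 53, 110 and 0 counts in shKDM6B replicates 1 to 3, against 28, 4 and 0 counts in shLuc replicates 1 to 3. Summed mature B cell markers were at 142 to 163 CPM in shKDM6B libraries and 179 to 197 CPM in shLuc libraries, and erythroid markers at 10.4 to 13.0 CPM in shKDM6B libraries and 19.3 to 23.6 CPM in shLuc libraries. The part of these other markers in the results was not tested, and values without the 3 libraries richest in KRT5 are given where they change a call.

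Levels are given as CPM, counts scaled to a common library size by TMM, a method that sets that size from the bulk of genes, and changes as log2 fold changes of shKDM6B over shLuc from edgeR's quasi-likelihood test. The standard error (SE) is that of the log2 fold change, and adjusted p-values are Benjamini-Hochberg values over all 13839 genes tested. A gene counted as changed at an adjusted p under 0.05.

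The phosphatase genes moved apart. DUSP5, DUSP8, DUSP7, DUSP2, DUSP14, DUSP16 and DUSP4 rose in shKDM6B libraries, with log2 fold changes of 0.13 to 0.72. DUSP1, DUSP10 and DUSP6 fell, by 0.20 to 1.35 on the log2 scale. All 10 were abundant enough to be tested, and all 10 passed the test, 7 as higher and 3 as lower, where 39.1% of all tested genes passed, 20.1% as higher and 18.9% as lower. Among the 11068 tested genes with at least 5.56 CPM on average, the level of the lowest phosphatase gene, 43.4% passed. The values of the 3 shKDM6B libraries did not overlap those of the 3 shLuc libraries for any of the 10 genes, and the same held for 48.4% of all tested genes. Since the genes were chosen with earlier results known, their counts and medians are a description.

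The size of change set DUSP1 and DUSP10 apart from the others. Both changed by more than 2-fold, and 3.17% of all tested genes passed the test with a change of at least 2-fold. DUSP4, DUSP6 and DUSP16 changed by less than 1.2-fold. The median log2 fold change of the 10 genes was 0.28, against -0.005 over all genes tested, and the median size of change regardless of sign was 0.46, against 0.16 over all genes tested.

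**Figure D1:**
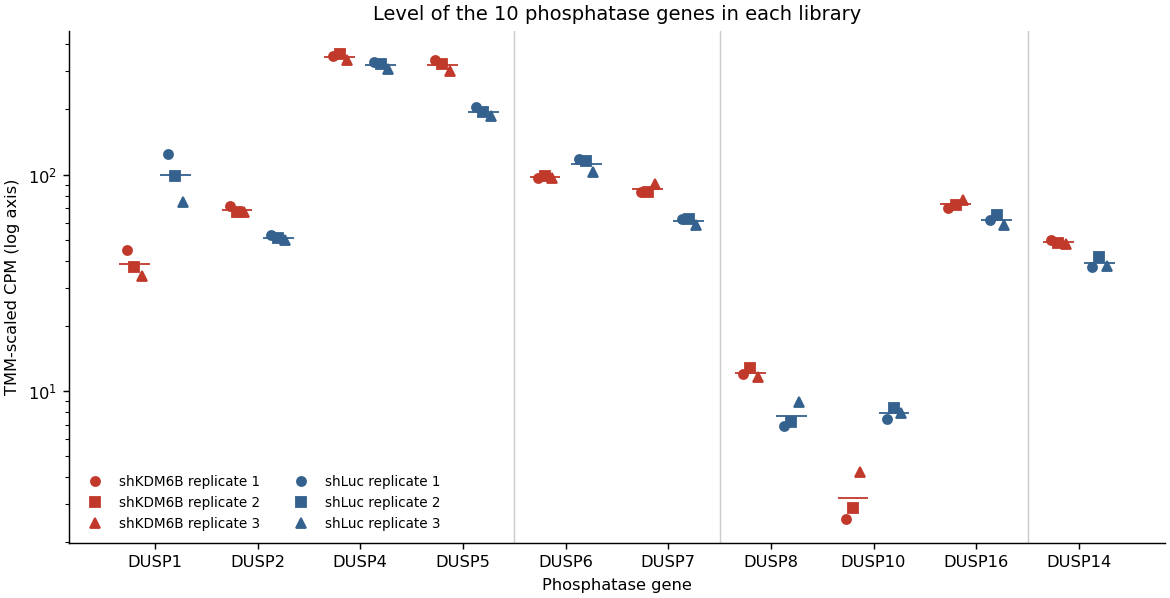
Level of each phosphatase gene in each library, as TMM-scaled CPM on a log axis. Red symbols are shKDM6B libraries and blue symbols shLuc libraries, horizontal bars are means of 3 libraries, and vertical lines separate nuclear, cytoplasmic ERK-selective, JNK and p38-selective and atypical members. DUSP1 and DUSP10 lie well below their shLuc values, with 38.8 against 99.5 CPM and 3.22 against 7.90 CPM on average.

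**Figure D2:**
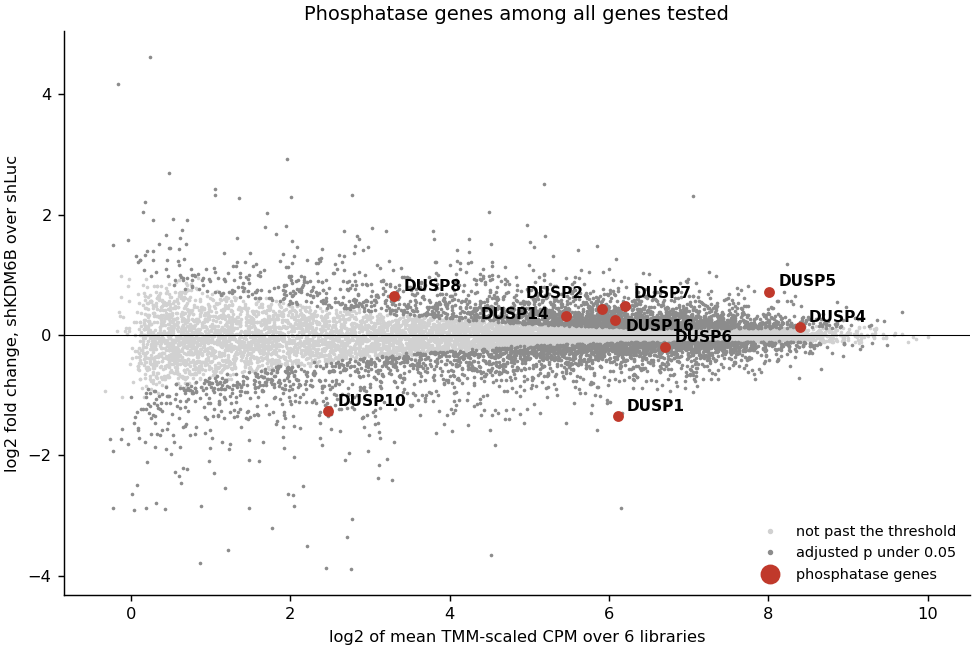
Log2 fold change of shKDM6B over shLuc against the log2 of the mean TMM-scaled CPM for all 13839 tested genes. Dark grey points passed the test, light grey points did not, and red points are the 10 phosphatase genes. DUSP5 and DUSP4 are the most abundant of the 10 in CPM and DUSP10 the least.

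Promoter sequences are shown for the pair of genes that fell most, DUSP1 and DUSP10, beside DUSP2 and DUSP8, which rose and hold more than 1 match to the motifs searched. Of the 10 genes, 8 matched the RefSeq promoter table (build GRCh38.p14), all but DUSP4 and DUSP5. The authors' counting used GRCh37 (hg19), so these positions are not those of their counting. Shown 5′ to 3′ on the coding strand are the 250 bases before the annotated start of DUSP1 (chr5:172771196-172771445, minus strand), DUSP10 (chr1:221742090-221742339, minus strand, the first of 2 starts), DUSP2 (chr2:96145441-96145690, minus strand) and DUSP8 (chr11:1572272-1572521, minus strand). Capitals mark any match to the motifs named after the sequences.
DUSP1: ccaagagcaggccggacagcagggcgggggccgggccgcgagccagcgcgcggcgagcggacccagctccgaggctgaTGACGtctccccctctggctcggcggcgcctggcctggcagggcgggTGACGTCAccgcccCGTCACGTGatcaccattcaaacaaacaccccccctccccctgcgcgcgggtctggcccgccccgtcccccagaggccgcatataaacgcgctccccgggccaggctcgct
DUSP10: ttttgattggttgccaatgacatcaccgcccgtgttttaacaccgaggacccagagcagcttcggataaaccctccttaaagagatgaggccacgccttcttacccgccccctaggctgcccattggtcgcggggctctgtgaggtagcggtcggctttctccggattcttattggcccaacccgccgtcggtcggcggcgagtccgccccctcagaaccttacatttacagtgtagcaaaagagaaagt
DUSP2: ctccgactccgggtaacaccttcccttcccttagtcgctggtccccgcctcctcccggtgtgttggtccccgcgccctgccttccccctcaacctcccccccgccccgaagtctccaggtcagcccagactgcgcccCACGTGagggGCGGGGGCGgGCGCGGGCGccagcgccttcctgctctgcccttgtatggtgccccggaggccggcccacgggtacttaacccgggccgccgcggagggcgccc
DUSP8: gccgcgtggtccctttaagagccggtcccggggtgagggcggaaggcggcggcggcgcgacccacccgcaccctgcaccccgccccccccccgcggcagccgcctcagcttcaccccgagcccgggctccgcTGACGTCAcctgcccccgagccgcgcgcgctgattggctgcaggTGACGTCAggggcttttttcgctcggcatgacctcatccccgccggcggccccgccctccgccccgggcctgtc
Both strands were searched for the cAMP response element TGACGTCA, its core TGACG, the AP-1 motif TGANTCA, the EGR motif GCGNGGGCG, the E-box CACGTG and the CArG box bound by SRF. Every full cAMP response element also holds 2 cores, 1 on each strand.

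Of the 8 genes searched, DUSP1 and DUSP8 had a full cAMP response element in this window. DUSP1 had 1, at 125 to 118 bases before the start, with a further core at 172 to 168 and another at 111 to 107 that overlaps an E-box at 108 to 103. DUSP8 had 2, at 118 to 111 and at 74 to 67 bases before the start. Of 34943 promoters searched, 1.63% held the full element and 21.2% the core. The 2 genes that share this element changed in opposite directions. DUSP2 held 2 EGR motifs and an E-box, and DUSP14 and DUSP16 held 1 EGR motif each, against 8.39% of all promoters with an EGR motif and 6.32% with an E-box. The windows of DUSP10, at both starts, DUSP6 and DUSP7 held none of these letters. No AP-1 motif or CArG box was found in the 8 genes' windows, where 6.59% and 1.16% of all promoters held one. A match describes letters in this window and does not show that a factor binds there.

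Among the nuclear phosphatases, DUSP1 and DUSP5 moved furthest, and in opposite directions. DUSP1 is an immediate-early gene whose product inactivates p38, JNK and ERK in the nucleus. It stood at 44.7, 37.6 and 34.0 CPM in shKDM6B replicates 1 to 3, against 125, 98.7 and 74.9 CPM in shLuc replicates 1 to 3. Every shKDM6B library was below every shLuc library, although the shLuc libraries differed widely among themselves. DUSP1 fell to 39.1% of its shLuc level (log2 fold change -1.35, SE 0.13, adjusted p = 1.41e-08). In RNA from whole cultures, fewer expressing cells and less RNA per cell cannot be told apart.

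DUSP5, a nuclear phosphatase that acts on ERK and also anchors it in the nucleus, gave the smallest p-value of the 10 genes. Its level was 339, 326 and 300 CPM in shKDM6B replicates 1 to 3, against 205, 195 and 187 CPM in shLuc replicates 1 to 3. The lowest shKDM6B library was well above the highest shLuc library. DUSP5 rose to 165% of its shLuc level (log2 fold change 0.72, SE 0.051, adjusted p = 2.43e-10). With 0.85 counts per base of exon it was the densest of the 10 genes in reads.

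DUSP2, a nuclear phosphatase of blood cells, also rose, by a smaller amount. It was measured at 71.8, 67.3 and 67.5 CPM in shKDM6B replicates 1 to 3, against 52.6, 51.0 and 50.0 CPM in shLuc replicates 1 to 3. The spread within each group was small beside the gap between them. The level was 134% of shLuc (log2 fold change 0.43, SE 0.053, adjusted p = 1.09e-06).

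DUSP4, a nuclear phosphatase of ERK and JNK, had the highest CPM of the 10 genes and the smallest change. Its values were 354, 359 and 340 CPM in shKDM6B replicates 1 to 3, against 331, 324 and 308 CPM in shLuc replicates 1 to 3. The groups came within a few percent of each other without overlapping. The log2 fold change was 0.13 (SE 0.046, 95% confidence interval 0.03 to 0.22, adjusted p = 0.0312). The call depended on single libraries, and was lost without shKDM6B replicate 1 (adjusted p = 0.0831), shKDM6B replicate 2 (adjusted p = 0.167), shLuc replicate 2 (adjusted p = 0.0984) or shLuc replicate 3 (adjusted p = 0.195). It was also lost with upper-quartile scaling (adjusted p = 0.0647), with scaling on sparsely covered genes, those with under 0.03 counts per exon base (adjusted p = 0.137) and without the 3 libraries richest in KRT5 (adjusted p = 0.105).

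The cytoplasmic ERK phosphatases went opposite ways. DUSP6, a feedback inhibitor transcribed in response to ERK, was at 96.2, 98.5 and 96.5 CPM in shKDM6B replicates 1 to 3, against 118, 115 and 103 CPM in shLuc replicates 1 to 3. The shKDM6B libraries lay close together below the shLuc libraries, of which replicate 3 came nearest. DUSP6 fell to 87.0% of its shLuc level (log2 fold change -0.20, SE 0.050, adjusted p = 0.00262). That call was lost with scaling on sparsely covered genes (adjusted p = 0.0524) and without the 3 libraries richest in KRT5 (adjusted p = 0.0531). GENCODE 29 annotates an antisense gene over 1875 of the 4632 exon bases of DUSP6, and with a library kit whose name shows no strand marking, reads of the pair cannot be told apart.

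DUSP7, the closest relative of DUSP6 in role, rose instead. It was at 83.2, 82.9 and 90.7 CPM in shKDM6B replicates 1 to 3, against 62.6, 62.7 and 58.8 CPM in shLuc replicates 1 to 3. The groups were well separated. DUSP7 reached 140% of its shLuc level (log2 fold change 0.49, SE 0.052, adjusted p = 1.41e-07). The level of DUSP6 per length was 1.41, 1.45 and 1.30 times that of DUSP7 in shKDM6B replicates 1 to 3, against 2.30, 2.23 and 2.13 times in shLuc replicates 1 to 3. This ratio within a library does not depend on how libraries are scaled.

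The JNK and p38 phosphatases were also split. DUSP10, a phosphatase of p38 and JNK found in nucleus and cytoplasm, fell, and rests on few counts. It had 20, 24 and 42 counts in shKDM6B replicates 1 to 3, against 54, 74 and 72 counts in shLuc replicates 1 to 3. These make 2.55, 2.87 and 4.24 CPM in shKDM6B replicates 1 to 3, against 7.42, 8.36 and 7.93 CPM in shLuc replicates 1 to 3. shKDM6B replicate 3 was above the other shKDM6B libraries and still below every shLuc library. DUSP10 fell to 41.5% of its shLuc level (log2 fold change -1.27, SE 0.19, adjusted p = 1.31e-05). Without the 3 libraries richest in KRT5 the log2 fold change was -0.94 (adjusted p = 0.00177).

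DUSP8, a phosphatase of JNK and p38 best known from brain and heart, rose, and its counts were also low. They were 94, 107 and 115 in shKDM6B replicates 1 to 3, against 50, 64 and 81 in shLuc replicates 1 to 3. As CPM these were 12.0, 12.8 and 11.6 in shKDM6B replicates 1 to 3, against 6.87, 7.23 and 8.93 in shLuc replicates 1 to 3. The shLuc libraries spread more than the shKDM6B libraries, with no overlap. The log2 fold change was 0.65 (SE 0.13, adjusted p = 0.000496).

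The counts of DUSP8 may be affected by a pseudogene named after it that is also counted. Their sequences were not compared. This pseudogene, DUSP8P5, looked up because of its name, had 69, 91 and 94 counts in shKDM6B replicates 1 to 3, against 86, 103 and 128 counts in shLuc replicates 1 to 3. Its log2 fold change was -0.37 (SE 0.13, adjusted p = 0.0253), against 0.65 for DUSP8. That call on DUSP8P5 was lost without shKDM6B replicate 1 (-0.31, adjusted p = 0.0957), shKDM6B replicate 3 (-0.35, adjusted p = 0.0682) or shLuc replicate 3 (-0.27, adjusted p = 0.138), without the 3 libraries richest in KRT5 (-0.44, adjusted p = 0.0668) and in DESeq2 (-0.37, adjusted p = 0.103). How the authors' counting treated any reads that match both DUSP8 and DUSP8P5 is not stated in the labels. The other listed pseudogenes of DUSP8 and those of DUSP5 were at 0 counts in every library.

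DUSP16, a JNK phosphatase that shuttles between nucleus and cytoplasm, rose a little. It was at 70.3, 72.4 and 76.7 CPM in shKDM6B replicates 1 to 3, against 61.9, 65.2 and 58.4 CPM in shLuc replicates 1 to 3. The groups did not overlap, and the change to 119% of shLuc was among the smaller ones (log2 fold change 0.25, SE 0.054, adjusted p = 0.000959).

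DUSP14, the small phosphatase without a docking domain, is known to restrain T cell receptor signalling. It was at 50.1, 48.5 and 47.8 CPM in shKDM6B replicates 1 to 3, against 37.5, 41.8 and 37.8 CPM in shLuc replicates 1 to 3. The shKDM6B libraries lay close together above all shLuc libraries. It rose to 125% of its shLuc level (log2 fold change 0.32, SE 0.062, adjusted p = 0.000278).

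**Figure D3:**
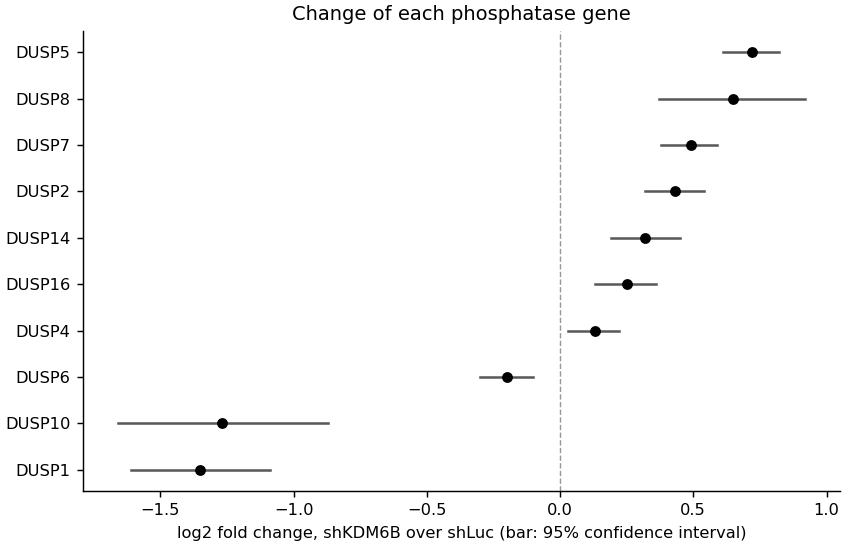
Log2 fold change of shKDM6B over shLuc for the 10 phosphatase genes, from the largest rise at the top to the largest fall at the bottom. Points are edgeR estimates and bars 95% confidence intervals. The interval of DUSP4 comes nearest to 0, from 0.03 to 0.22, and that of DUSP10 is the widest, from -1.66 to -0.87.

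Levels of different genes were compared per length, as TMM-scaled CPM per kilobase of exon. DUSP5 led in both groups, with 123 ± 7.74 in shKDM6B libraries and 74.8 ± 3.42 in shLuc libraries (SD, n = 3 each). DUSP1 was sixth in shKDM6B libraries at 19.2 ± 2.68 and second in shLuc libraries at 49.3 ± 12.4 (SD, n = 3 each). In shKDM6B libraries the order was DUSP5, DUSP4, DUSP2, DUSP6, DUSP14, DUSP1, DUSP7, DUSP16, DUSP8 and DUSP10, and among neighbours the values of DUSP14 and DUSP1 overlapped. DUSP1 there also spanned the values of DUSP6, which lay between 20.8 and 21.3. In shLuc libraries it was DUSP5, DUSP1, DUSP4, DUSP2, DUSP6, DUSP14, DUSP7, DUSP16, DUSP10 and DUSP8, where DUSP1 overlapped DUSP4 and DUSP7 overlapped DUSP16. DUSP8 and DUSP10 traded places at the low end, with a DUSP8 to DUSP10 ratio of 2.97, 2.81 and 1.73 in shKDM6B replicates 1 to 3, against 0.585, 0.546 and 0.710 in shLuc replicates 1 to 3.

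The make-up of the phosphatase transcripts differed between the groups, while their sum differed by little. Summed per length over the 10 genes, the level was 309, 299 and 287 in shKDM6B replicates 1 to 3, against 279, 263 and 240 in shLuc replicates 1 to 3, a ratio of means of 1.14. The groups did not overlap, but they lay close. DUSP5 made up 42.0%, 41.6% and 40.0% of that sum in shKDM6B replicates 1 to 3, against 28.0%, 28.3% and 29.8% in shLuc replicates 1 to 3. DUSP1 made up 7.16%, 6.23% and 5.88% in shKDM6B replicates 1 to 3, against 22.1%, 18.6% and 15.5% in shLuc replicates 1 to 3. The level of DUSP5 was thus 5.86, 6.69 and 6.80 times that of DUSP1 in shKDM6B replicates 1 to 3, against 1.27, 1.52 and 1.93 times in shLuc replicates 1 to 3. The shares of DUSP4 and DUSP16 overlapped between the groups. So did the summed levels of the cytoplasmic ERK phosphatases, at 36.1 ± 0.711 in shKDM6B libraries and 35.0 ± 2.07 in shLuc libraries (SD, n = 3 each), where DUSP6 fell and DUSP7 rose. Exon lengths came from GENCODE 29 and not from the annotation used for counting, and these sums and shares are descriptions without a test.

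**Figure D4:**
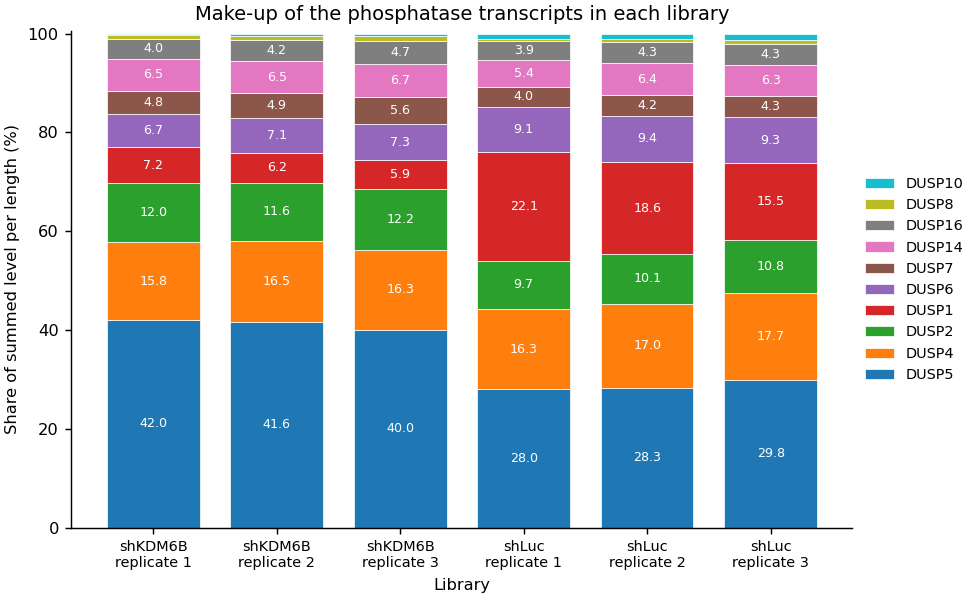
Share of each phosphatase gene in the summed level per length of the 10 genes, in percent, for each library, with shares above 3% written in the bars. DUSP5 takes 40.0% to 42.0% in shKDM6B libraries and 28.0% to 29.8% in shLuc libraries, and DUSP1 takes 5.88% to 7.16% in shKDM6B libraries and 15.5% to 22.1% in shLuc libraries.

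Spread between libraries of a group differed among the genes. In shLuc libraries DUSP1 had the highest coefficient of variation, 25.1%, and DUSP2 the lowest, 2.52%. In shKDM6B libraries DUSP10, with the fewest counts, had the highest, 28.0%, followed by DUSP1 with 14.0%, and DUSP6 had the lowest, 1.26%. DUSP1 also had fewer raw counts in the deepest library of each group than in the shallowest. It had 337 counts in shKDM6B replicate 3 and 351 in shKDM6B replicate 1, and 680 counts in shLuc replicate 3 and 910 in shLuc replicate 1, although the total of replicate 3 was 1.24 times that of replicate 1 in shKDM6B libraries and 1.23 times in shLuc libraries. DUSP1 was highest in replicate 1 and lowest in replicate 3 of both groups.

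Some immediate-early genes shared that order, more of them in shLuc than in shKDM6B libraries. FOS, a subunit of the AP-1 transcription factor, was at 27.1, 13.4 and 11.5 CPM in shKDM6B replicates 1 to 3, against 153, 115 and 108 CPM in shLuc replicates 1 to 3. FOSB, another AP-1 subunit, was at 4.58, 3.11 and 2.42 CPM in shKDM6B replicates 1 to 3, against 62.3, 36.3 and 29.2 CPM in shLuc replicates 1 to 3. In shKDM6B libraries 3 of the 10 tested immediate-early genes, FOS, FOSB and EGR2, were highest in replicate 1 and lowest in replicate 3, an order found for 19.7% of all tested genes. In shLuc libraries 7 of the 10 had that order, which was found for 19.2% of all tested genes. Library totals run the other way in both groups, with replicate 1 the shallowest and replicate 3 the deepest. The part of depth in the order of these genes was not tested. In shKDM6B replicates 1 to 3, EGR2 had 6, 3 and 2 counts and EGR1 9, 3 and 7 counts, too few to fix an order.

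**Figure D5:**
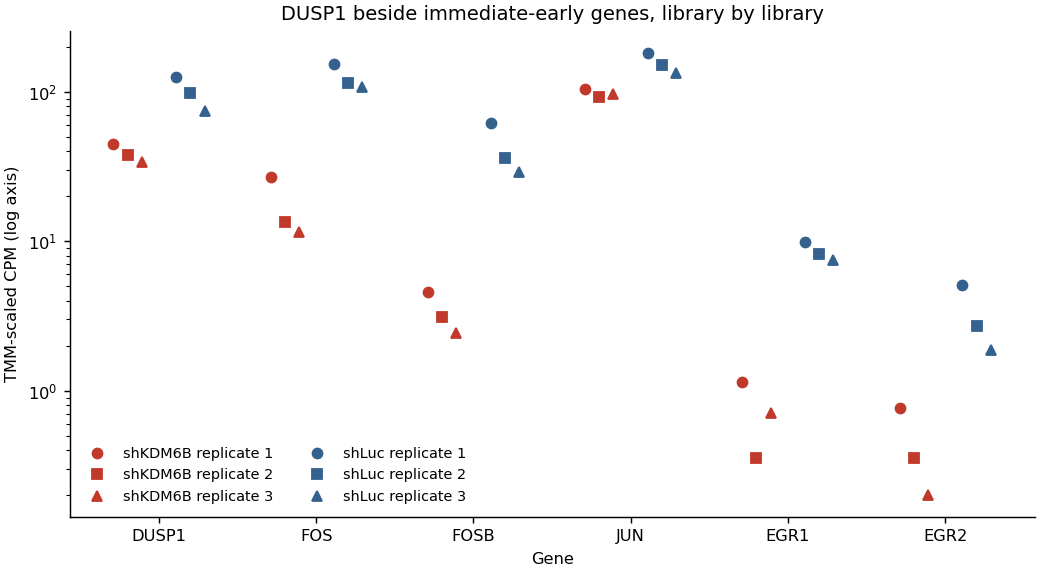
DUSP1 beside 5 immediate-early genes in each library, as TMM-scaled CPM on a log axis, with shKDM6B libraries in red and shLuc libraries in blue. In shLuc libraries each of the 6 genes is highest in replicate 1 and lowest in replicate 3, as with 125 and 74.9 CPM for DUSP1. The 5 were taken from 10 tested, of which 7 had this shLuc order. NR4A1, IER2 and ATF3, which did not have it, are not plotted. JUNB and ZFP36, which had it, are not plotted either. The 5 plotted genes all fell, while JUNB rose (log2 fold change 0.25) and ZFP36 did not pass the test (0.00). In shKDM6B libraries JUN and EGR1 are lowest in replicate 2, EGR1 with 3 counts there.

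Growth of counts with depth varied with how dense a gene was in reads. Only tested genes with a mean of at least 20 counts over all libraries were summed here. That floor was not used for the scaling on sparsely covered genes. From the shallowest to the deepest library, summed counts of 2517 genes with under 0.03 counts per base grew 1.36 times in shKDM6B libraries and 1.33 times in shLuc libraries. Those of 48 genes with at least 1 count per base grew 1.07 times in each group. DUSP5, with 0.85 counts per base, grew 1.11 times in shKDM6B libraries and 1.14 times in shLuc libraries. Genes with 0.3 to 1 counts per base grew 1.18 and 1.17 times. Single genes could depart from this trend. DUSP1, with 0.29 counts per base, went to 0.960 and 0.747 times, against 1.25 and 1.24 times for genes with 0.1 to 0.3. DUSP10, with few counts, grew 2.10 and 1.33 times. With scaling on sparsely covered genes, the log2 fold change of DUSP5 was 0.76 (adjusted p = 6.59e-17), against 0.72 in the main test. That scaling raised log2 fold changes over all genes by a median of 0.041.

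The partners of these phosphatases changed in both directions and mostly by small amounts. Of 9 tested MAP kinases, 3 were higher and 3 lower, against 20.1% and 18.9% of all tested genes. The other 3 did not pass, and the median log2 fold change of the 9 was 0.01. MAPK3, an ERK kinase and target of DUSP5 and DUSP6, was at 109 ± 1.72 CPM in shKDM6B libraries and 121 ± 2.12 CPM in shLuc libraries (SD, n = 3 each). It fell by 0.15 on the log2 scale (adjusted p = 0.00620), a call lost with scaling on sparsely covered genes (-0.11, adjusted p = 0.223) and without the 3 libraries richest in KRT5 (-0.16, adjusted p = 0.0591). MAPK8, a JNK kinase and target of DUSP8, DUSP10 and DUSP16, rose by 0.38 (adjusted p = 4.48e-05), and MAPK12, a p38 kinase, by 0.18 (adjusted p = 0.00184).

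Of 7 MAP kinase kinases, 1 was higher and 3 lower, against 20.1% and 18.9% of all tested genes. The other 3 did not pass, and the median of the 7 was -0.04. MAP2K6, which activates p38, fell furthest, to 4.21 ± 0.0293 CPM in shKDM6B libraries, against 10.8 ± 0.240 CPM in shLuc libraries (SD, n = 3 each, log2 fold change -1.36, adjusted p = 1.52e-07). It had 33, 35 and 42 counts in shKDM6B replicates 1 to 3, against 81, 95 and 97 counts in shLuc replicates 1 to 3. With so few counts, the small SDs are not a measure of precision. MAP2K4, an activator of JNK, fell by 0.42 on the log2 scale and MAP2K5, the activator of ERK5, by 0.38, while MAP2K3, another activator of p38, rose by 0.17.

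Most related phosphatases did not pass the test, and neither did most of all tested genes, of which 39.1% passed. Of 9 tested atypical dual-specificity phosphatases outside the 10, 1 was higher, 1 lower and 7 not past the test, with a median of 0.08. DUSP22, an atypical phosphatase linked to JNK signalling, fell by 0.27 and STYX, a catalytically inactive relative that binds ERK, rose by 0.38. Of 4 tested phosphatases of other classes that act on MAP kinases, PTPN7, a tyrosine phosphatase of blood cells that binds ERK and p38, rose by 0.27 and 3 did not pass, with a median of -0.01. DUSP9, the remaining cytoplasmic ERK phosphatase, had 1 count in all 6 libraries together, so a change in it was not detectable at this depth. STYXL1, a relative without catalytic activity, stood at 32.5 ± 3.13 CPM in shKDM6B libraries and 36.7 ± 4.18 CPM in shLuc libraries (SD, n = 3 each), and its log2 fold change of -0.17 missed the threshold (adjusted p = 0.110), which it passed without shLuc replicate 3 (-0.24, adjusted p = 0.0268).

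Other transcripts of the ERK feedback loop mostly fell. Of all tested genes, 20.1% were higher and 18.9% lower, with a median log2 fold change of -0.005. Of 7 tested feedback genes outside the 10, 1 was higher, 5 lower and 1 not past the test, with a median of -0.55. The pathway inhibitors SPRED2 (-0.84), SPRY1 (-0.55) and SPRED1 (-0.51) and the gene PHLDA1 (-1.17) were the ones with the smallest p-values, and all of these fell. Of 10 tested immediate-early genes, 1 was higher, 6 lower and 3 not past the test, with a median of -0.53. Among them FOSB (-3.65), EGR1 (-3.51), FOS (-2.88) and JUN (-0.67) fell, EGR1 to 9, 3 and 7 counts in shKDM6B replicates 1 to 3. DUSP1 and DUSP6 fell, as did most of these genes, while DUSP5, DUSP2, DUSP4 and DUSP7 rose. These lists were chosen with earlier results of these data known, so their counts are a description.

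The genes whose values across the 6 libraries were most like those of DUSP5 came from outside the pathway. Likeness was measured as the root mean square difference of log2 CPM, each gene centred on its own mean. The 5 nearest genes were AARS, the alanyl-tRNA synthetase, MAN1C1, a Golgi mannosidase, DEGS1, a sphingolipid desaturase, PDE12, a mitochondrial phosphodiesterase, and STX6, a syntaxin of vesicle transport, at differences of 0.027 to 0.057. AARS, the nearest, was at 288, 289 and 266 CPM in shKDM6B replicates 1 to 3, against 175, 167 and 166 CPM in shLuc replicates 1 to 3. The choice by likeness to DUSP5 fixes the direction of these genes, so it is no separate observation.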

How the data were processed

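RNA was sequenced from 3 shKDM6B and 3 shLuc libraries of MM.1S cells. The authors deposited raw counts per gene symbol for each library and a table of normalized values, a signal in which every library's counts are scaled by a single factor (relative tolerance 1e-06, for the 56609 symbols matched between the tables). STAR, featureCounts and DESeq, and the build GRCh37 (hg19), are named by the submitters' processing notes. Their versions, the annotation and the strand setting are not stated there. Each count table had 56637 symbols, after 1 line without a value was left out.

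The test was edgeR's quasi-likelihood test (version 4.0.16, R 4.3.3) on these counts (TMM, filterByExpr, glmQLFit, glmQLFTest, group as the single term, two-sided), with Benjamini-Hochberg adjustment over 13839 genes. Confidence intervals at 95% use the moderated degrees of freedom. Library totals, which limit precision, were 7338393 to 9848351 counts.

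Named genes were the 10 members, KDM6B, up to 4 genes past the test with the smallest p in each pathway list, and the 5 genes most like the member with the smallest p, with 0.5 CPM added before logs. DUSP8P5, STYXL1, DUSP9 and other genes outside this rule were chosen after their values were seen. The members and lists were chosen with earlier results of these data known. JCHAIN was matched through its older symbol IGJ. Exon lengths came from GENCODE 29 (GRCh38). Some genes that the rule names are not reported here.

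Alternatives were DESeq2 size factors, upper-quartile scaling, TMM factors from the 3372 sparsely covered genes (under 0.03 counts per exon base), the replicate number as a block, no filter, a minimum of 1 CPM in 3 or more libraries, each library left out, the 3 libraries richest in KRT5 left out, DESeq2 1.42.0, limma-voom and limma-trend (limma 3.58.1) on log2 of deposited values plus 1 or 0.5, and an adjusted p under 0.01.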

Additional observations from a re-analysis of the deposited data

How the results depend on the processing

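Across 18 alternatives, DUSP1, DUSP2, DUSP5, DUSP7, DUSP8, DUSP10, DUSP14 and DUSP16 kept their direction and passed the test in every one. Their log2 fold changes ran from -1.53 to -1.18 for DUSP1, from 0.65 to 0.77 for DUSP5, from -1.54 to -0.94 for DUSP10 and from 0.52 to 0.77 for DUSP8. The value of -0.94 came from leaving out the 3 libraries richest in KRT5, where 1 shKDM6B library is assumed to vary like the others. DUSP4 kept its direction and missed the threshold with upper-quartile scaling (0.11), with scaling on sparsely covered genes (0.17), without the 3 libraries richest in KRT5 (0.10) and at an adjusted p under 0.01 (0.13), and leaving out 1 library gave 0.09 to 0.15. DUSP6 missed it with scaling on sparsely covered genes (-0.16) and without the 3 libraries richest in KRT5 (-0.17). Scaling on sparsely covered genes raised log2 fold changes over all genes by a median of 0.041. The causes of the lost calls were not tested. Of the 10 genes, 6 to 7 were higher and 2 to 3 lower. Counts over all genes ran from 3821 to 6218. For 27 other named genes, 477 of 486 values kept direction and call, 8 lost the call and none reversed.

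Replicate numbers are shared by both groups, but the labels do not say that they mark a batch. For want of such a label, same-numbered libraries were not taken as pairs. They had correlations of deviations of 0.116, -0.077 and 0.152, and 4 of 6 libraries correlated best with their own number. Whether the numbers mark a batch was not tested. With the number as a block, 6218 genes passed, and 7 of the 10 genes were higher and 3 lower. DUSP10 and DUSP8 rest on 20 to 115 counts per library, which limits the precision of their changes.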
